A study of Mus musculus with 4 samples.

Results

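Eosinophil-associated ribonucleases (Ears) and the eosinophil receptors Ccr3 and Siglecf were examined in mouse mucosal mast cells differentiated in culture, with and without stimulation by interleukin-18 (IL-18). The genes were chosen by name: every gene spot whose name on the array was Ear1, Ear2, Ear3, Ear6, Ear11, Ccr3 or Siglecf was used. This gave 8 of 41174 probes, for 6 of the 7 names; Ear2 matched 0 probes and was not analysed here. The names were chosen with earlier results of this comparison known, so the members' ratios are given as a description and were not tested. The gene lists below were also chosen with earlier results known, so their p-values and calls are not tests of independently chosen genes.

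The study hybridised 4 arrays of 2 colours. On each array RNA of IL-18 stimulated cells carried Cy5 and RNA of unstimulated cells of the same biological replicate carried Cy3. Both groups were differentiated in vitro, not taken from tissue. The sources used here do not give the IL-18 dose or the duration of stimulation. No array had its dyes exchanged, so the effect of IL-18 and a dye effect of a probe cannot be told apart. Of 43379 gene spots, 49.9% to 54.0% exceeded background clearly (the scanner software's call "well above background") in the Cy3 channel and 57.9% to 62.7% in the Cy5 channel. Replicates 1 and 2 shared a slide, and replicates 3 and 4 another. All 12 mast cell markers examined, among them Kit, Fcer1a, Cpa3 and Mcpt1, were well above background in both channels.

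The Ears belong to the RNase A superfamily. They are the rodent counterparts of the human eosinophil granule proteins eosinophil-derived neurotoxin and eosinophil cationic protein, and the family grew in rodents by repeated gene duplication, which left several closely similar copies. They are stored in eosinophil granules, and macrophages can make them too. CCR3 is the receptor for eotaxins and several other CC chemokines and guides eosinophils, while Siglec-F is an inhibitory receptor for sialylated sugars on eosinophils and on alveolar macrophages. IL-18 is a cytokine of the IL-1 family whose receptor is found on mast cells.

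How alike the Ear copies are can be seen in their promoters, which RefSeq places on chromosome 14 in build GRCm38.p6. The 250 bases before the start are shown for Ear1 and Ear6, which are members with similar ratios, for Ear11, a member with a smaller ratio, and for Ear10, the copy outside the members whose probe also read higher. Capitals mark a run of 57 bases that Ear1, Ear2, Ear6 and Ear10 share without a mismatch; sequences read 5′ to 3′ on the gene's strand. RefSeq lists Ear11 under its current name, Rnase2a, and held an entry for 6 of the 7 members; Ear3 was not matched.
Ear1, chr14:43819640-43819889, minus strand: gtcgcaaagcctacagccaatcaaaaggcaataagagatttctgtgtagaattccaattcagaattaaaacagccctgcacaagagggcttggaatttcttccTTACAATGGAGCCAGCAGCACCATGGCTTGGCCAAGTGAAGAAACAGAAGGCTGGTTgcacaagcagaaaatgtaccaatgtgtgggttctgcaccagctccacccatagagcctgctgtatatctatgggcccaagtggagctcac
Ear10, chr14:43923597-43923846, minus strand: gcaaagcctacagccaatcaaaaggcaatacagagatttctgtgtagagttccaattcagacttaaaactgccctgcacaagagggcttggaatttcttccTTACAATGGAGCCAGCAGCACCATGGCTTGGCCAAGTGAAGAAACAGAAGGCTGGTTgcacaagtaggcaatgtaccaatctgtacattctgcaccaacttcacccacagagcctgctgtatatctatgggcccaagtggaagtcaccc
Ear6, chr14:51853518-51853767, plus strand: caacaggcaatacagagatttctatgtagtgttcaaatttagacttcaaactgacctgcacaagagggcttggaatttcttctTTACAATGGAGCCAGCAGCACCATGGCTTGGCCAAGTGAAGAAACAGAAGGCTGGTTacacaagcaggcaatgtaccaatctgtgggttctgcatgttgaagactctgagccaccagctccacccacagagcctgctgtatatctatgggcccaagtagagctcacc
Ear11, chr14:51256113-51256362, minus strand: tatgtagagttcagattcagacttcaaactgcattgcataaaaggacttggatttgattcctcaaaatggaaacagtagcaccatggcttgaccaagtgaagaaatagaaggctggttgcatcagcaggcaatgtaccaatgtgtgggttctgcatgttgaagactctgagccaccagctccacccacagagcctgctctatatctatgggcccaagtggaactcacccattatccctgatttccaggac

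Over the aligned part of these windows, Ear1 matched Ear2 at 99.2% of bases, Ear10 at 93.9%, Ear6 at 92.6% and Ear11 at 86.1%. Ear5 (now Rnase2b), a copy that was not detected on the arrays, matched Ear1 at 92.9%. Ear14, also not detected, matched Ear1 at only 52.3%, so not every Ear copy has a similar window. Ccr3 and Siglecf, on chromosomes 9 and 7, matched Ear1 at 52.4% and 54.6%, and each other at 48.1%. The capital run was picked as the longest that Ear1, Ear2, Ear6 and Ear10 share, so its presence in these 4 was set beforehand. An exact copy was found in 4 of 32851 promoter windows, those of the same genes. Near copies, such as that in the Ear5 window, were not counted. Of short motifs searched on both strands, the letters GATA, bound by GATA factors, occurred in all 9 windows examined (Ear1, Ear2, Ear5, Ear6, Ear10, Ear11, Ear14, Ccr3 and Siglecf) and in 53.6% of all 32851 windows. In Ear1, Ear2, Ear6 and Ear10 the single match began 24 to 28 bases before the start. CCAAT occurred 3 times each in Ear1, Ear2 and Ear10, once each in Ear5, Ear6, Ear11 and Ccr3, and 0 times in Ear14 and Siglecf. The share of all windows with at least 1 match was 33.8%. TTGCNNAA, a form of the C/EBP motif, occurred once in Ear1, Ear2, Ear5, Ear10 and Ear11 (9.56% of windows). GAGGAA, a form of the PU.1 motif, occurred once each in Ear11, Ccr3 and Siglecf (23.3% of windows). TATAAA had 0 matches in the 9 windows (12.4% of windows). A form of the NF-κB motif, also searched, had 1 match in Ccr3 and 0 in Siglecf and the Ear windows (45.8% of windows). These matches describe letters only.

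The Ear probes were well above background in both channels on 4 of 4 arrays, and the second Ear6 probe was dim (111 to 150 in Cy3 and 188 to 273 in Cy5). For Ear1, the mean spot brightness in unstimulated cells was 791, 698, 508 and 588 scanner units in replicates 1 to 4, and in stimulated cells it was 2200, 2050, 1770 and 1750. Every stimulated value lay above every unstimulated one, so the groups did not overlap. The same held for the other 4 Ear probes, but 69.4% of all tested genes showed it, because the Cy5 channel was brighter as a whole: the mean signal over gene spots was higher in Cy5 by 1.25 to 1.43 on the log2 scale. Brightness alone therefore says little of a single gene here, and the ratios below are taken after the array's trend of ratio with brightness was removed by loess.

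**Figure D1:**
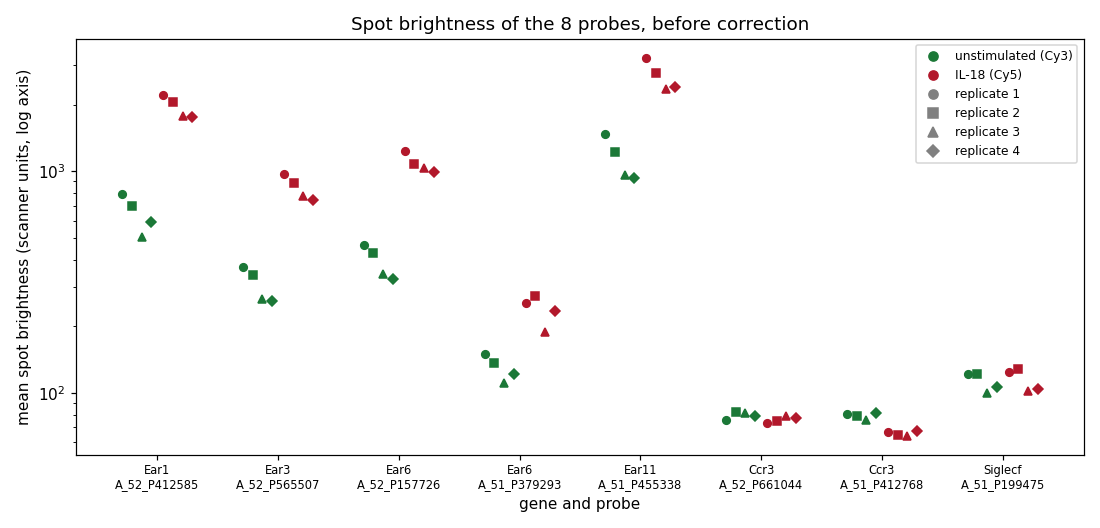
Mean spot brightness before correction (scanner units, log axis) of the 8 probes; green is the unstimulated channel (Cy3), red the IL-18 channel (Cy5), and each marker shape is 1 of 4 replicates. The Ear probes separate by channel, with Ear1 at 508 to 791 against 1750 to 2200, while the Ccr3 and Siglecf probes lie near the lower end; the channels overlap at Siglecf and the tested Ccr3 probe, and at the other Ccr3 probe Cy5 (64.3 to 67.4) lies below Cy3 (76.0 to 81.0).

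After loess, Ear1 read log2 ratios of 0.55, 0.78, 0.91 and 0.65 in replicates 1 to 4, with a mean of 0.72 ± 0.16 (SD, n = 4), or 1.65-fold. Ear1 is one of the granule ribonucleases first described in mouse eosinophils. Its ratio lay above 0 on 4 of 4 arrays, and it ranked at place 122 from the top of 16982 tested genes. As these are bulk cultures, more cells that express a gene and more RNA per cell cannot be told apart.

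Ear6 was measured by a pair of probes. The brighter one read 0.49, 0.65, 0.77 and 0.78, with a mean of 0.67 ± 0.14 (1.59-fold). The dimmer one read 0.07, 0.65, 0.35 and 0.50, with a mean of 0.39 ± 0.25 (1.31-fold; SD, n = 4). Both probes lay above 0 on all 4 arrays, the dimmer one only barely in replicate 1. The log ratio that the scanner software computed gave 0.83 for the brighter probe and 0.80 for the dimmer.

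Ear3 read 0.45, 0.72, 0.77 and 0.74, with a mean of 0.67 ± 0.15 (1.59-fold; SD, n = 4). Replicate 1 was again the lowest. Ear11, the ribonuclease now named Rnase2a, which is known as a chemoattractant for macrophages, read 0.22, 0.34, 0.35 and 0.38, with a mean of 0.32 ± 0.07 (1.25-fold). Its ratio was below that of Ear1 on 4 of 4 arrays, by 0.26 to 0.57, while those of Ear3 and of the brighter Ear6 probe differed from Ear1 by −0.14 to 0.13 with either sign. The dimmer Ear6 probe was also below Ear1 on 4 of 4 arrays after loess, but on 2 of 4 with the software's log ratio. With median centring all of them read below Ear1 on average: Ear3 by a difference of −0.204 (4 of 4 arrays), the brighter Ear6 probe −0.153 (3 of 4) and the dimmer one −0.776 (4 of 4), against −0.321 for Ear11. With the scanner software's log ratio Ear11 was below Ear1 on 4 of 4 arrays too, at 0.32 ± 0.16 against 0.80 ± 0.20, and so it was with median centring, at 1.10 against 1.42.

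All 5 Ear probes thus read above 0 on all 4 arrays, as did 36.4% of the tested genes; the shares were 39.6% with the software's log ratio and 74.2% with median centring. The median over the 4 Ear genes was 0.67, against 0.035 over all tested genes. Since this contrast was known when the genes were chosen, nothing is read from these counts. The Ear probes are also not independent measurements: the copies are closely similar, the probes' sequences were not used here, and how far 1 probe binds the RNA of another copy was not tested.

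The size of the Ear ratios depended on how the arrays were scaled. With median centring in place of loess, Ear1 read 1.42 ± 0.20, Ear3 1.22 ± 0.06, Ear6 1.27 ± 0.12 and Ear11 1.10 ± 0.28 (SD, n = 4), while the median of all tested genes moved from 0.035 to 0.525. With the software's log ratio the median over the 4 Ear genes was 0.82 and that of all tested genes 0.08. Replicate 1 stood apart in a way that turned with the scaling. It was the lowest array at 5 of 5 Ear probes after loess and with the software's log ratio, and the highest at 4 of 5 with median centring. By slide, Ear1 read 0.67 on the slide of replicates 1 and 2 and 0.78 on that of replicates 3 and 4, Ear3 0.58 and 0.76, Ear6 0.57 and 0.78, and Ear11 0.28 and 0.36, so each lay above 0 on both slides.

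**Figure D2:**
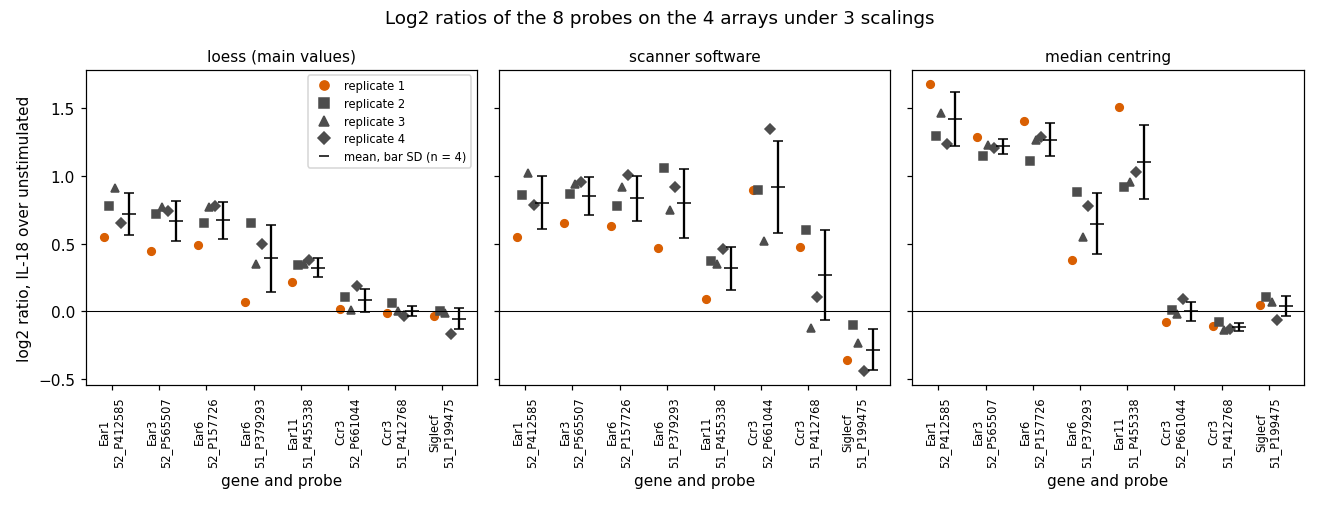
Log2 ratios (IL-18 over unstimulated) of the 8 probes on each array, after loess, as given by the scanner software and with median centring; markers are replicates, replicate 1 in orange, and the bar is the mean with SD (n = 4). The Ear probes lie above 0 in all 3 panels, replicate 1 is lowest at all 5 of them in the first 2 panels and highest at 4 of 5 in the last, and Siglecf changes side between panels.

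Siglecf and Ccr3, the eosinophil receptors, gave dim spots. Siglecf was dim but well above background on 4 of 4 arrays in both channels, with a brightness of 122, 122, 99.8 and 107 in unstimulated and 125, 129, 102 and 104 in stimulated cells. The channels overlapped. Its log2 ratios were −0.03, 0.00, −0.01 and −0.17, with a mean of −0.05 ± 0.08 (SD, n = 4), so that it differed from 0 by less than the spread between arrays. Siglecf was at −0.28 ± 0.15 by the scanner software and at 0.04 ± 0.08 by median centring, so its sign depended on the scaling.

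Ccr3 had a pair of probes, and neither was well above background in unstimulated cells on any array. The tested one passed the filter through the stimulated channel alone, with a brightness of 76.0, 82.5, 81.6 and 78.9 in unstimulated and 73.4, 75.2, 78.6 and 77.1 in stimulated cells. Its log2 ratios were 0.02, 0.11, 0.01 and 0.19 (mean 0.08 ± 0.09, SD, n = 4), above 0 on 4 of 4 arrays but by no more than the spread between them. This probe was at 0.92 ± 0.34 by the scanner software and at −0.001 ± 0.069 by median centring. The other Ccr3 probe was not well above background in either channel on any array and was not tested; it read 0.01 ± 0.04. At this brightness no change of Ccr3 was measurable in a way that held across the scalings.

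The rest of the RNase A superfamily, with the cellular RNase inhibitor, held 13 genes outside the members. Of these 6 were not well above background in either channel on any array: Ang2, Ang3, Ear14, Rnase10, Rnase9 and Rnase2b (Ear5). Of the 7 tested, 1 rose and 1 fell at an adjusted p under 0.05 in limma, where 19.7% of all tested genes rose and 13.7% fell. The one that rose was Ear10, whose log2 ratios of 0.48, 0.70, 0.83 and 0.72 (mean 0.68 ± 0.15, SD, n = 4; 1.61-fold, limma adjusted p = 0.00147) lay close to those of Ear1. Ear10 kept its call in 15 of 15 alternatives; as a copy of the members it is not a separate line of evidence for them. The one that fell was Rnh1, the inhibitor that binds and blocks ribonucleases of this family in the cytosol, at −0.75 ± 0.25 (limma adjusted p = 0.00303). Rnh1 was lower on 4 of 4 arrays (−0.64, −0.60, −0.66 and −1.13) but read 0.41 with median centring. Rnase4 (0.04 ± 0.08), Rnase6 (0.01 ± 0.05), Ang (0.09 ± 0.06) and Ang4 (0.05 ± 0.07), more distant members of the superfamily, did not pass. The median over the 7 tested genes was 0.04, against 0.035 over all tested genes. With median centring 4 genes of this list were called higher and 0 lower, and with the software's log ratio 2 and 1. Rnase6 read 1.01 with median centring, where Ear11 read 1.10 and the median of all tested genes was 0.525.

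Most granule genes of eosinophils were not detected. Epx (eosinophil peroxidase), Prg2 (major basic protein), Prg3 and Alox15 (a lipoxygenase of eosinophils) were not well above background in either channel on any array, and only Ltc4s, the leukotriene C4 synthase that mast cells use as well, was tested from the granule and enzyme list (0.04 ± 0.08, limma adjusted p = 0.498). The summed signal of that list over local background, most of it from Ltc4s, was 786 to 1010 in unstimulated and 1250 to 1570 in stimulated cells. Il5ra, the IL-5 receptor chain that marks the eosinophil lineage, was well above background on 1 array in the stimulated channel and on 0 in the other, and Hrh4 on none (0).

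Among 11 surface receptors expressed by eosinophils, 8 were tested, of which 4 rose and 1 fell (19.7% and 13.7% of all tested genes), with a median of 0.20. The count was 7 higher and 0 lower with median centring, and 2 higher and 1 lower with the software's log ratio, without replicate 2 or without replicate 3. Csf2rb1 and Csf2rb2, genes of cytokine receptor β chains, read 0.55 ± 0.19 and 0.54 ± 0.22 (SD, n = 4), but lost their calls with the software's log ratio (0.19 and 0.11). A probe that the array also names Csf2rb1, and that its accession places at Csf2rb, fell at −0.72 ± 0.18 (0.08 with median centring). The other probe placed at Csf2rb was called lower too, at −0.25, so probes of this β chain differed in direction. In the counts above Csf2rb and Csf2rb1 stand as separate genes, 1 as the fall and 1 among the rises. Pirb, an inhibitory receptor, rose by 0.30 ± 0.10 and lost its call with the software's log ratio (0.05) and without replicate 2 or 3. The limma adjusted p-values of Csf2rb1, Csf2rb2, the brighter Csf2rb probe and Pirb were 0.00418, 0.00623, 0.0017 and 0.00848. Adgre1, which encodes F4/80 and is shared by macrophages and mouse eosinophils, rose by 0.28 ± 0.17 (limma adjusted p = 0.0246) and lost its call without replicate 2 or 3 or without the pairing. All of these are receptors that mast cells or macrophages carry too.

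All 9 transcription factors and regulators of the eosinophil lineage were tested. Of these 2 rose and 4 fell (19.7% and 13.7% of all tested genes), with a median of −0.21. With median centring 6 were called higher and 0 lower, and without replicate 2 the counts were 0 and 1. Spi1 (PU.1) read −0.57 ± 0.28, Cebpa −0.51 ± 0.35, Xbp1 −0.50 ± 0.14 and Zfpm1 (FOG-1) −0.31 ± 0.09, and Id2 rose by 0.37 ± 0.15 (SD, n = 4). Gata2 rose by 0.30 ± 0.09 (n = 3, since replicate 3 had no usable spot), while its other probe fell at −0.29. With median centring Xbp1 read 0.45 and Zfpm1 0.73, so those falls hold relative to the loess trend only, and Spi1 and Cebpa lost their calls. Calls were also lost without replicate 2 (Spi1, Cebpa, Zfpm1, Id2 and Gata2) or replicate 3 (Cebpa and Id2), and Gata2 lost its call with the software's log ratio. Gata1, which drives eosinophil and mast cell genes, read −0.21 ± 0.18 and did not pass (limma adjusted p = 0.0622). Cebpb did not pass by its brightest probe (−0.12 ± 0.13), while its other probe was called lower at −0.42. The limma adjusted p-values of the 6 called genes lay between 0.00322 and 0.0236.

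On the side of the ligands and growth factors, several ligand genes of CCR3 rose. Of 6 measured, 4 were tested and 3 rose, where 19.7% of all tested genes rose. The 3 were Ccl5 (0.85 ± 0.12, limma adjusted p = 7.51e-04), Ccl24, or eotaxin-2 (0.27 ± 0.14, adjusted p = 0.0181), and Ccl7 (0.22 ± 0.13, adjusted p = 0.0285). Ccl5 kept its call in 15 of 15 alternatives, while Ccl24 and Ccl7 lost theirs without replicate 2 or 3. Ccl11, or eotaxin-1, was not well above background on any array, and Ccl28 read −0.18 ± 0.13 (limma adjusted p = 0.0536). Ccl28 was called lower with median centring (−0.24), with the software's log ratio (−0.75), with an offset of 1 and without background correction. It was also called lower with the mean of a gene's probes, without the pairing and without replicate 1. Of the cytokines that keep eosinophils alive, Il5 and Il3 were not well above background on any array. Csf2, the GM-CSF gene, was not well above background in unstimulated cells but was on 4 of 4 arrays in stimulated ones. Its brightness was 72.5 to 78.8 in Cy3 and 110 to 144 in Cy5, and its log2 ratios were 0.07, 0.71, 0.97 and 0.73 (mean 0.62 ± 0.38, SD, n = 4; limma adjusted p = 0.0163). Csf2 passed the filter through the stimulated channel alone and was not tested under the stricter filter. Its size depended on the background correction, at 1.30 when the offset was 1 and at 3.17 by the scanner software, and its call was lost without replicate 2 or 3. With Cy3 raised to the lowest signal called well above background on each array, the mean ratio was 1.40-fold. This is not a lower bound for each array, as replicate 1 read a log2 ratio of 0.07.

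**Figure D3:**
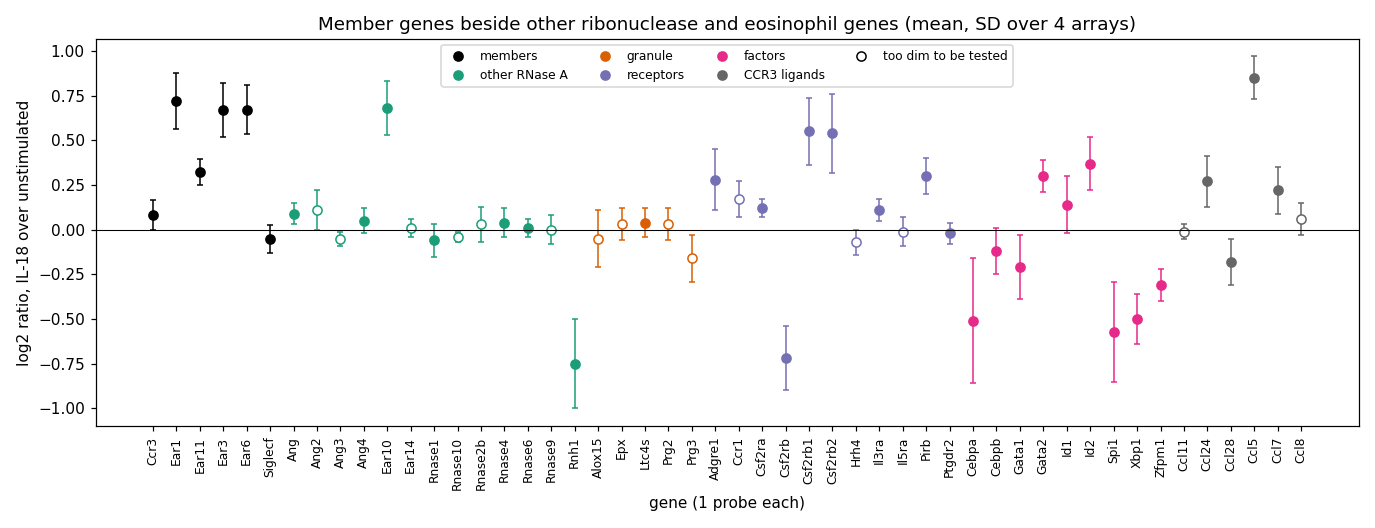
Mean log2 ratio with SD (n = 4 arrays, 3 for Gata2) of the member genes beside other RNase A superfamily genes, eosinophil granule genes, receptors, lineage factors and CCR3 ligands, 1 probe a gene; open circles were too dim to be tested. Ear10 (0.68) sits beside the members Ear1, Ear3 and Ear6, Rnh1 (−0.75) lies at the bottom, and the eosinophil granule genes Epx, Prg2 and Prg3 are open circles near 0.

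Calls among related receptors are given beside the shares of all tested genes, of which 19.7% rose and 13.7% fell. Of 7 other Siglec genes 4 were tested and 1 fell: Cd22, at −0.21 ± 0.13 (limma adjusted p = 0.0369), dim in both channels and no longer called without replicate 2, 3 or 4. Of 10 other CC chemokine receptors 5 were tested and 2 passed, Ccrl2 at 0.31 ± 0.11 (limma adjusted p = 0.00819) and Ccr2 at −0.20 ± 0.13 (adjusted p = 0.0399). Ccrl2 lost its call without replicate 2 or 3. The fall of Ccr2 was lost or reversed in 7 of 15 alternatives, and its other probe read 0.15.

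Markers of other cells that a mast cell culture could hold were read on the same arrays, because macrophages can express Ears. The counts below stand beside 19.7% of all tested genes that rose and 13.7% that fell. All 10 macrophage markers were well above background in both channels, and 1 rose (Adgre1, above) while 9 did not pass, with a median of −0.04. With median centring 7 were called higher and 0 lower, with the software's log ratio 1 and 3, and without replicate 2 or 3 the call of Adgre1 was lost. Their summed signal over local background was 77100 to 100000 in unstimulated and 247000 to 305000 in stimulated cells, before the removal of the trend. Chil3 and Lyz2 carried most of it, with a Cy3 brightness of 36000 to 51200 and 38800 to 46300. The other probe of Lyz2 was called lower at −0.37, against 0.08 ± 0.16 for the brighter one used here. Of 4 basophil markers 3 were tested and 2 rose, Mcpt8 by 0.41 ± 0.09 (limma adjusted p = 0.00282) and Cd200r3 by 0.24 ± 0.09 (adjusted p = 0.0141). Mcpt8 lost its call without the pairing and Cd200r3 without replicate 2. The summed signal of the 4 basophil markers was 16100 to 18000 in unstimulated and 44700 to 66600 in stimulated cells. Cd200r3 carried most of it, with a brightness of 15000 to 17100 in Cy3 and 42000 to 64700 in Cy5. Mcpt8 had 437 to 910 in Cy3 and 1140 to 2310 in Cy5. Neutrophil markers gave 0 calls in limma among 5 tested genes (0 at an unadjusted p under 0.05), and T and B cell markers 0 among 7 (2 at an unadjusted p under 0.05). With the software's log ratio 1 neutrophil marker and 4 T and B cell markers were called higher. With median centring these counts were 0 and 1, and without background correction 0 and 2. Among 3 tested platelet genes Itga2b fell, at −1.78 ± 0.31 (limma adjusted p = 6.69e-04). Of the 12 mast cell markers 6 rose and 1 fell, with the largest values for Cma1 (0.82 ± 0.17), Fcer1a (0.81 ± 0.36), Tpsb2 (−0.74 ± 0.07) and Mcpt1 (0.69 ± 0.25; limma adjusted p from 6.69e-04 to 0.00615). Tpsb2 turned to 0.47 with median centring, under which 10 mast cell markers were called higher and 0 lower; 3 were called higher with the software's log ratio and 3 without replicate 2. The part of macrophages or basophils in the Ear ratios was not tested.

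The genes whose ratios over the 4 arrays came nearest to those of Ear1 were Ifitm1, with a root mean square difference of 0.0479, the ribosomal protein gene Rpl37 (0.0549) and Ear10 (0.0768). Ifitm1, an interferon-induced membrane protein gene, read 0.52, 0.80, 0.85 and 0.59, against 0.55, 0.78, 0.91 and 0.65 for Ear1. How many genes would come this near by chance was not tested.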

How the data were processed

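RNA of IL-18 stimulated (Cy5) and unstimulated (Cy3) mucosal mast cells was compared on 4 two-colour Agilent arrays, 1 per biological replicate. The deposited intensity values are mean spot and median local background brightness, made by the authors with Agilent Feature Extraction 9.1, per the submitters' processing notes and file headers, and not yet corrected. The log10 ratios of Cy5 over Cy3 in the same deposited files were background-subtracted and dye-normalized by that software, per the file headers; a deposited table repeats them to within 0.00496. Both log10 ratios served as alternatives.

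Intensities were corrected with limma 3.58.1 in R 4.3.3 (normexp, offset 50, all spots) and normalized by loess within each array, with control and outlier spots at weight 0. The offset pulls ratios of dim probes toward 0. A probe was tested if 1 channel was well above background on at least 3 arrays (24118 probes, 16982 genes). The test was lmFit with eBayes; p-values were two-sided, adjusted by Benjamini-Hochberg across these probes, and called under 0.05. The array is the pair, so this test is paired. Replicates are biological per the labels; no saturated gene spot (0) was found. The number of arrays limits the precision: with 4 arrays, the smallest p of an exact sign-flip test is 0.125.

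A gene stood for its brightest tested probe. Current symbols came from a RefSeq table of GRCm38.p6 by accession (24913 of 43379 gene spots); members kept the array's names. The members and gene lists were chosen with earlier results of these data known. From each list, up to 4 genes past the threshold with the largest ratios are named, and for Ear1 the 3 nearest profiles; others are named where counts were small. Alternatives were scaling, background, filter, probe choice, slide, pairing, variance prior and each replicate left out. The steps were tested on simulated data. Promoter windows came from RefSeq.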

Additional observations from a re-analysis of the deposited data

Results flagged for a closer look

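On 2 of the 8 member probes 1 array lay far from the other 3, by Dixon's criterion at 95%. The log2 ratio of Ear3 was 0.45 in replicate 1, against 0.72 to 0.77 in the other replicates. That of Siglecf was −0.17 in replicate 4, against −0.03 to 0.00 in the others. Chance gives about 1 such probe in 20.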

How the results depend on the processing

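The ratios of Ear1, Ear3, Ear6 and Ear11 stayed above 0 in each of 15 alternatives, but most of these could not change the sign. The filter, slide, pairing and variance prior settings left these means as they were. Each Ear probe was above 0 on every array, so leaving out a replicate or averaging probes could not turn the sign. The series value table repeats the scanner software's log ratio. Only scaling and background correction could have turned the sign, and there all of these ratios stayed above 0. When median centring replaced loess, Ear1 read 1.425, Ear11 1.104, Ear3 1.221, Ear6 1.272 and Siglecf turned to 0.040; 10701 genes were called higher and 80 lower, against 3344 and 2321. With the scanner software's log ratio, Ccr3 read 0.919, Ear3 0.853, Ear6 0.834 and Siglecf −0.283, and with the series value table the same but for Siglecf at −0.282. Ccr3 read 0.221 with an offset of 1, and Ear6 0.533 as the mean of its probes. Leaving out 1 replicate each gave ranges of 0.659 to 0.779 for Ear1, 0.302 to 0.358 for Ear11, 0.636 to 0.745 for Ear3, 0.637 to 0.735 for Ear6, 0.047 to 0.108 for Ccr3 and −0.068 to −0.012 for Siglecf, and 1038 to 3530 genes called higher and 568 to 2997 lower. The lowest counts came without replicate 2 (1038 and 568), with 1267 and 797 without replicate 3. Without the pairing of channels (no replicate block) 2594 and 2058 genes were called, and the members' means were the same by construction. Reversed signs among the called list genes came with median centring for Csf2rb (0.078), Xbp1 (0.450), Zfpm1 (0.731), Rnh1 (0.411), Ccr2 (0.348) and Tpsb2 (0.471), with the software's or the table's log ratio for Il1rl1 (−0.082) and Mcpt4 (−0.047), and with the mean of a gene's probes for Gata2 (−0.044). The cause was not tested. Of 30 called list genes, 6 kept call and sign in every alternative run (Ear10, Ccl5, Cma1, Fcer1a, Mcpt1 and Itga2b). With the stricter filter Ccr3 was no longer tested. Signal over background limits what can be said of Ccr3 and Siglecf.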
